A study of Bos taurus with 56 samples.

Results

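The isthmus and the ampulla of the bovine oviduct ipsilateral to the corpus luteum (CL) were compared by RNA sequencing of their scraped epithelium. The comparison comprises 28 of the 56 libraries of the series, 14 of the ipsilateral isthmus and 14 of the ipsilateral ampulla, chosen by their named region and side. They came from Holstein females on Day 3 after a synchronized estrus: 5 nulliparous heifers, 5 post-partum non-lactating cows that were dried off at calving and never milked, and 4 post-partum lactating cows, the cows being about 60 days post-partum. Each animal gave 1 library per region and side. All animals, heifers included, had received an intravaginal progesterone device, a prostaglandin F2 alpha analogue and a gonadotrophin-releasing hormone analogue, and none was inseminated. The oviducts were cut between the regions and the epithelium was recovered by scraping, so the samples are bulk mixtures of cells. In such samples fewer cells of a type and less RNA per cell cannot be told apart.

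The ampulla is the wide upper part of the oviduct where fertilization takes place, and the isthmus is the narrow part next to the uterus where sperm are stored and through which the embryo passes. The epithelium of both holds ciliated cells, which move fluid and gametes, and secretory cells, which release proteins such as oviductin (OVGP1) into the lumen. The ampulla is known for a higher share of ciliated cells and the isthmus for a thicker muscle wall. On Day 3 the early embryo is expected in the oviduct on the side of the CL.

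Counts on genes ranged from 3771989 to 5554403 per library in the ampulla (median 4969167) and from 3714419 to 6836850 in the isthmus (median 5260092). Levels are given as CPM, counts scaled to a common library size with TMM normalization. General epithelial markers were present in every library, with EPCAM at 197 to 345 CPM in the ampulla and 297 to 510 CPM in the isthmus. In the ipsilateral ampulla, 4 libraries did not match their animal number, which the column names of the table carry. A library named non-lactating carried the number of lactating cow B and correlated with the other libraries of non-lactating cow C (r = 0.847 over 200 genes that differ between animals), and a library named lactating carried the number of non-lactating cow C and correlated with lactating cow B (r = 0.889). The libraries of non-lactating cow B and heifer B each correlated with the other animal (r = 0.865 and 0.868) and not with their own number (r = 0.0469 and 0.115). The other 10 libraries of the ipsilateral ampulla correlated with their own number at r = 0.694 or more. The 4 libraries belong to the ampulla under either assignment and were kept in the groups of their names, and values without them are given for the main counts and where a call changed.

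The regions separated completely along the first principal component of the 1000 most variable genes, which held 63.2% of their variance. Ampulla libraries lay between -48.2 and -28.8 (median -38.9) and isthmus libraries between 16.8 and 65 (median 43.9). The isthmus was the more spread of the regions. Isthmus libraries of non-lactating cows B, C and D and of lactating cow A lay at 16.8 to 22.8, nearer to the ampulla, while the other 10 lay at 39.6 or more. Of 20 genes looked at, 8 had ranges in these 4 libraries apart from those in the other 10, and 12 overlapped, GRP (766 to 1613 CPM against 653 to 3556) and OVGP1 among them. Among those apart, UPK1B was 9.60 to 24.1 CPM in the 4, against 2.27 to 5.85 CPM in the other 10. Likewise complement C3 was 506 to 4068 CPM against 7.38 to 330, and mucin MUC16 was 5572 to 7851 CPM against 248 to 4147. LRP2, a gene of the isthmus, was 1093 to 1729 CPM in the 4 and 1912 to 4745 CPM in the other 10. The 4 were singled out by their position after the values were seen, so no test was made between them and the others. That position is itself drawn from the most variable genes, so some separation of such genes follows from the choice. The count of genes apart was not made over all genes. At the far end lay the isthmus library of heifer A, with the lowest OVGP1 (152 CPM), MUC16 (248 CPM) and C3 (7.38 CPM) of all 28 libraries.

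**Figure D1:**
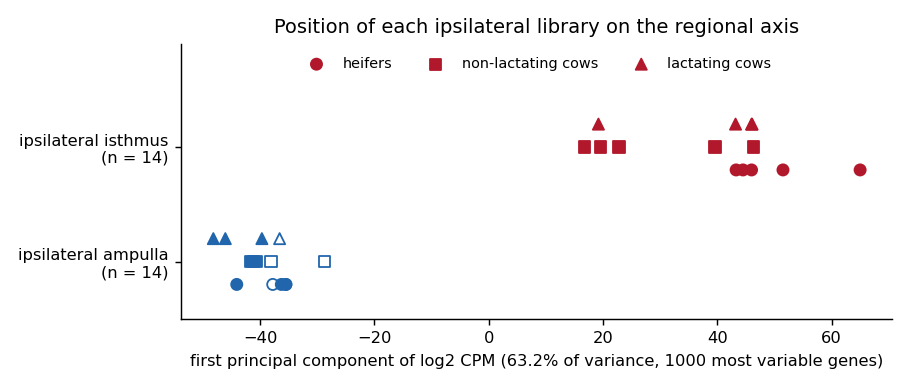
Position of each ipsilateral library on the first principal component of log2 CPM (horizontal axis, no unit) for the ampulla (blue) and the isthmus (red). Circles are heifers, squares non-lactating cows and triangles lactating cows, and open symbols are the 4 ampulla libraries that did not match their animal number. All isthmus libraries lie at 16.8 or above and all ampulla libraries at -28.8 or below.

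The regions differed in a large share of the genes. With metabolic group as a covariate, 7681 of 15276 genes (50.3%) were differentially expressed (DEGs), with a Benjamini-Hochberg adjusted p under 0.05 in edgeR's quasi-likelihood test. Of these, 3739 (24.5% of the genes tested) were higher in the isthmus and 3942 (25.8%) were lower. By a log2 difference above 1, 1125 DEGs (7.36%) were higher in the isthmus and 1036 (6.78%) were lower. Among the largest differences, 242 DEGs were higher in the isthmus by a log2 difference above 3, and 79 were lower by as much. The median over all genes tested was -0.02. The 14 isthmus and 14 ampulla libraries did not overlap for 732 genes, of which 462 (3.02% of the genes tested) were higher in the isthmus and 270 (1.77%) in the ampulla. Without the 4 libraries that did not match their number there were 7218 DEGs, and without the isthmus library of heifer A there were 7405. A stricter adjusted p under 0.001 left 4255 DEGs, and 1102 genes differed by significantly more than a log2 of 1.

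The genes with the smallest p encoded a secreted peptide, an endocytic receptor, an apical scaffold protein and a gap junction protein. GRP, which encodes gastrin-releasing peptide, was 653 to 3556 CPM in the isthmus (median 1722) and 0 to 1.40 CPM in the ampulla (median 0.319), so that even the lowest isthmus library lay far above every ampulla library. Its log2 difference was 11.84 ± 0.35 (SE, n = 14 and 14, adjusted p = 5.36e-21), the smallest p of all genes. LRP2, which encodes the endocytic receptor megalin, was 1093 to 4745 CPM in the isthmus (median 2757) and 25.9 to 58.1 CPM in the ampulla (median 39.8), a log2 difference of 6.02 ± 0.19 (adjusted p = 1.74e-20). PDZK1, which encodes a scaffold that holds transporters at the apical membrane, was 90.1 to 551 CPM in the isthmus (median 195) and at most 1.75 CPM in the ampulla. None of these values overlapped between the regions. An uncharacterized gene, LOC104970628, had the third smallest p, with 20.9 to 92.6 CPM in the isthmus (median 40.7) and at most 0.436 CPM in the ampulla.

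GJB5, which encodes a subunit of gap junction channels, was 43.4 to 248 CPM in the isthmus (median 102) and at most 2.36 CPM in the ampulla. The regions did not overlap, and the log2 difference was 6.57 ± 0.25 (adjusted p = 1.94e-18).

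Further genes were detected in the isthmus against a near-empty background in the ampulla. DACT2, whose product modulates WNT and TGF-beta signalling, was 2.41 to 28.2 CPM in the isthmus and had no count in any ampulla library, at least 271-fold lower. CEL, which encodes the bile salt-activated carboxyl ester lipase, was 1.51 to 13.5 CPM in the isthmus and also had no ampulla count, at least 128-fold lower. These bounds take 3 counts over the 14 ampulla libraries as the floor, and they and the interval given next cover counting error only. RNASE1, a secreted ribonuclease gene, was 4.61 to 33.5 CPM in the isthmus and had 2 counts in the ampulla, a ratio of 550 (95% counting interval 152 to 4544). NPPC, the precursor of C-type natriuretic peptide, was 5.65 to 52.7 CPM in the isthmus (median 15.3) and at most 0.711 CPM in the ampulla. GPM6B, a membrane glycoprotein gene, was 18.6 to 86.3 CPM against at most 0.938. The lysozyme gene LYZ1 was 3.76 to 50.9 CPM against at most 0.999 CPM, and FBN2, which encodes the matrix protein fibrillin-2, was 8.66 to 60.5 CPM against at most 1.20 CPM. LYZ1 belongs to a family of near-identical genes among which reads can be split. KCNH7, a voltage-gated potassium channel gene, varied most within the isthmus: 5 libraries had 57.6 to 129 CPM, the library of non-lactating cow E had 13.02 CPM and the other 8 had 4.26 CPM or less. The 5 high libraries came from heifers A, C and D and lactating cows B and D, and still no isthmus library was as low as the highest ampulla library (0.873 CPM).

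**Figure D2:**
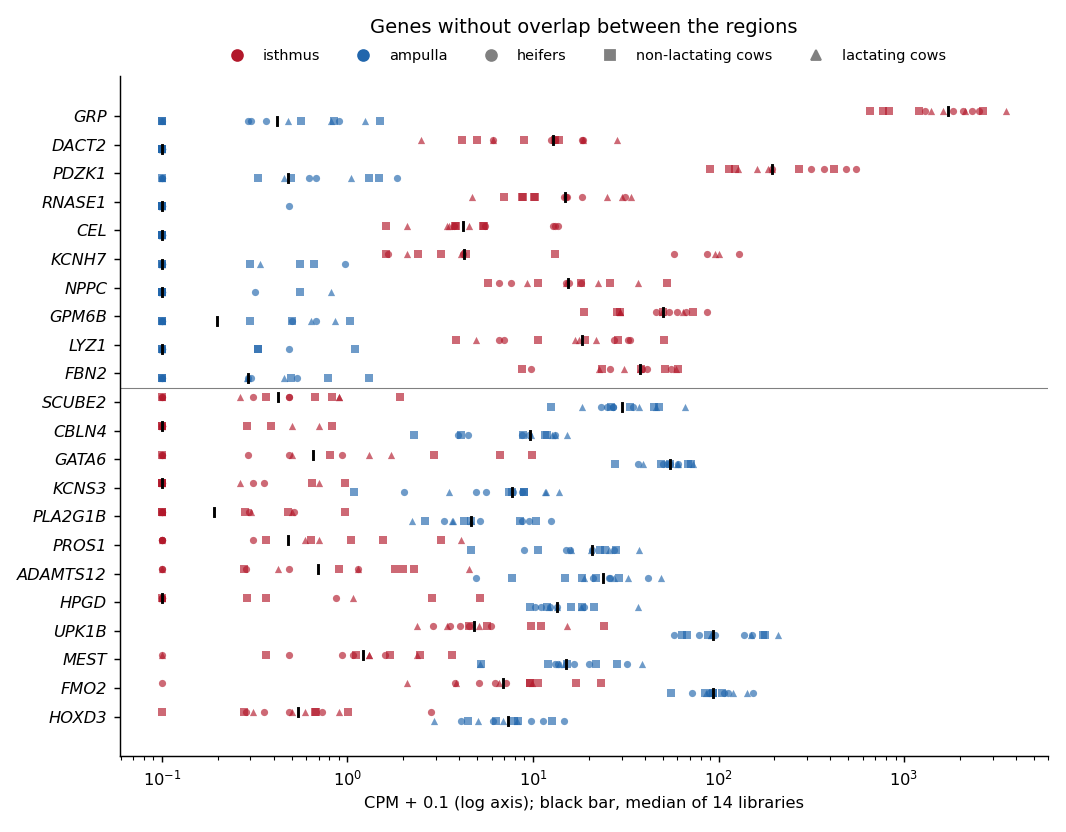
CPM + 0.1 (horizontal log axis) of 10 genes with a large excess in the isthmus and 12 with a large excess in the ampulla among those without overlap, in each ipsilateral library. Red symbols are isthmus and blue symbols ampulla libraries, shapes mark the metabolic groups and black bars the median of 14 libraries. GRP spans 653 to 3556 CPM in the isthmus and 0 to 1.40 CPM in the ampulla, and SCUBE2 spans 0 to 1.81 and 12.4 to 65.8 CPM.

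Among the 12 genes named as higher in the ampulla, SCUBE2, which encodes a secreted protein that releases hedgehog ligands, had the largest difference. It was 12.4 to 65.8 CPM in the ampulla (median 30.1) and 0 to 1.81 CPM in the isthmus (median 0.325), a log2 difference of -6.15 ± 0.33 (adjusted p = 3.98e-15). The transcription factor gene GATA6 was 27.6 to 72.8 CPM in the ampulla (median 55.0) and 0 to 9.80 CPM in the isthmus (median 0.555), where the highest value was that of non-lactating cow D. HPGD encodes the enzyme that inactivates prostaglandins and was 9.59 to 36.7 CPM in the ampulla (median 13.3) against 0 to 5.08 CPM in the isthmus (median 0). FMO2, a flavin-containing monooxygenase gene, was 55.3 to 153 CPM in the ampulla (median 93.5) and 0 to 23.2 CPM in the isthmus (median 6.78), and the uroplakin gene UPK1B was 57.6 to 210 CPM against 2.27 to 24.1 CPM. The highest isthmus values of GATA6, HPGD, FMO2 and UPK1B were all those of non-lactating cow D, the isthmus library nearest to the ampulla along the first principal component. Ampulla libraries lay above every isthmus library for each of these genes, with log2 differences of -5.03 ± 0.40, -4.46 ± 0.48, -3.71 ± 0.28 and -4.07 ± 0.29 for GATA6, HPGD, FMO2 and UPK1B (largest adjusted p = 6.34e-09).

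The other 7 genes of this group had medians of 4.53 to 23.6 CPM in the ampulla and medians of at most 1.11 CPM in the isthmus. They were CBLN4 (a secreted cerebellin; log2 difference -5.61), KCNS3 (a modulatory potassium channel subunit; -5.02), PLA2G1B (a secreted phospholipase A2; -4.68), PROS1 (the anticoagulant protein S; -4.58), ADAMTS12 (a metalloprotease; -4.54), MEST (an imprinted gene; -3.80) and HOXD3 (-3.62). The regions came closest in HOXD3, ADAMTS12, PROS1 and KCNS3. The lowest ampulla value of HOXD3 was 2.84 CPM and the highest isthmus value 2.71 CPM, and those of ADAMTS12 were 4.80 CPM and 4.41 CPM. PROS1 had a lowest ampulla value of 4.54 CPM and KCNS3 of 0.987 CPM, both in the library named non-lactating cow B, and highest isthmus values of 4.01 CPM and 0.868 CPM.

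The regional differences had the same direction in heifers, non-lactating cows and lactating cows for 7571 of the 7681 DEGs (98.6%), for 10761 of all 15276 genes tested (70.4%) and for all 732 genes without overlap. The DEGs were called on the libraries of these same groups, which favours a shared direction, and for genes without overlap it follows from the lack of overlap. Tested in each group alone, 4840 of 13654 genes were called in heifers (35.4%), 2584 of 13855 in non-lactating cows (18.7%) and 2207 of 13980 in lactating cows (15.8%). In heifers 18% of the genes tested were called higher in the isthmus and 17.5% lower, in non-lactating cows 9.94% and 8.71%, and in lactating cows 8.71% and 7.08%. Of the 7681 DEGs, 1455 were called in each of the 3 groups alone and 2534 in none. Of the 732 genes without overlap, 663 were called in each of the 3 groups. With the animal number as a replicate block 1698 genes were called in non-lactating cows. By the numbers as named 1 library of each region had no partner there, and the ampulla library of cow B matched heifer B. In lactating cows 1 library of each region also had no partner, and 2162 genes were called with the block. For non-lactating cows fewer libraries, the mismatched pair and the pairing itself cannot be told apart. Without the 4 libraries that did not match their number, 4579 genes were called in heifers, 2080 in non-lactating cows and 1786 in lactating cows. The number in lactating cows was 1444 without the isthmus library of lactating cow D. GRP differed in mean log2 CPM by 11.57 in heifers, 10.41 in non-lactating cows and 11.22 in lactating cows, and LRP2 by 6.64, 5.60 and 5.67. SCUBE2 differed by -5.59, -5.05 and -5.67, and FMO2 by -4.94, -2.65 and -4.40.

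Heifers and cows share no animal by the names of the table, so that calls in one can be read in the other. In the 9 cows together, 5089 of 14931 genes (34.1%) were called, 17.3% higher and 16.8% lower in the isthmus. Of the 2453 genes higher in the isthmus of heifers and also tested in cows, 2432 (99.1%) had the same direction in the cows and 1899 (77.4%) were called there in that direction, against 17.9% of all 13644 genes tested in both. Of the 2385 genes lower in the isthmus of heifers, 2368 (99.3%) kept the direction and 1758 (73.7%) were called, against 17.1% of all genes. No gene was called in opposite directions. Across the 13644 genes the log2 differences in heifers and cows correlated with r = 0.929, as a description, since genes are not independent replicates. Of the 4 libraries that did not match their number, those of non-lactating cow B and heifer B may mix heifers and cows. Without the 4 libraries, 74% of the higher and 67% of the lower genes were called again, against 16.4% and 14.9% of all genes.

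**Figure D3:**
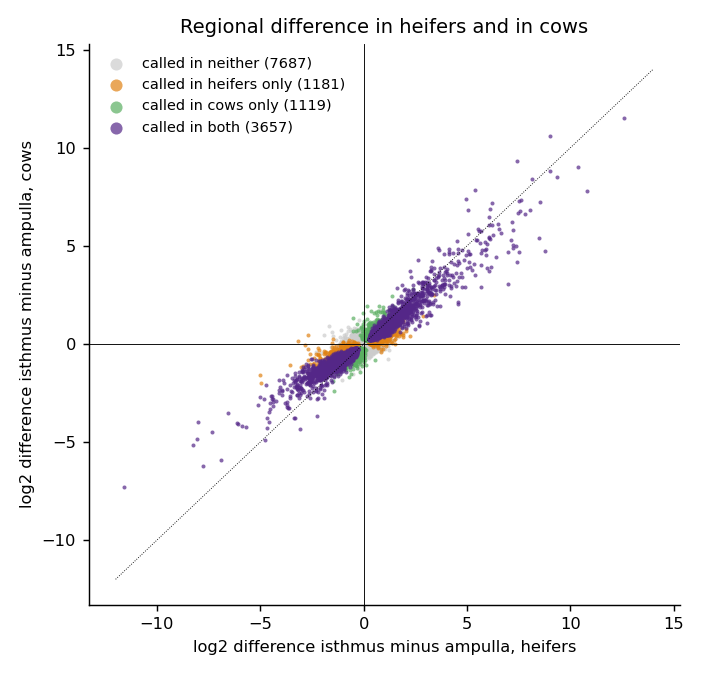
Log2 difference between isthmus and ampulla in heifers (horizontal axis, 5 against 5 libraries) and in cows (vertical axis, 9 against 9) for 13644 genes. Colours mark genes called in both (3657), in heifers only (1181), in cows only (1119) or in neither (7687), and the dotted line marks equal differences. No gene called in both lies in the quadrants of opposite direction.

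Whether the regional difference itself varied with the metabolic group was tested as an interaction. None of 15276 genes passed (edgeR's quasi-likelihood test, smallest adjusted p = 0.811; 557 genes had an unadjusted p under 0.05), and DESeq2's likelihood ratio test called 1 gene, BSG (adjusted p = 0.0146). BSG encodes basigin, a membrane protein that escorts lactate transporters, and also had the smallest p in edgeR. Its ampulla means were 416 ± 83.7 CPM in heifers (SD, n = 5), 438 ± 33.4 in non-lactating cows (n = 5) and 405 ± 56.2 in lactating cows (n = 4). In the isthmus it was 1777 ± 452 CPM in heifers, 851 ± 140 in non-lactating cows and 946 ± 122 in lactating cows. CES3, a carboxylesterase gene and second by p in edgeR (adjusted p = 1), was 5.16 ± 3.23 CPM in the isthmus of heifers, 1.88 ± 0.669 in non-lactating cows and 1.10 ± 0.902 in lactating cows.

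Most ciliated cell genes were lower in the isthmus and most general epithelial genes were higher. Of 64 ciliated cell genes tested, 55 were lower in the isthmus (85.9%, against 25.8% of all genes) and 1 was higher, PROM1 (1.56%, against 24.5%), with a median log2 difference of -0.50, against -0.02 over all genes. Without the 4 libraries that did not match their number 49 were lower. FOXJ1, the master regulator of motile cilia, was 270 to 439 CPM in the ampulla (median 322) and 151 to 287 CPM in the isthmus (median 211), overlapping in range, with a log2 difference of -0.70 ± 0.08 (adjusted p = 5.33e-08). The dynein light chain gene DYNLRB2 had the largest decrease (-1.17 ± 0.11), followed by TP73 (-0.97 ± 0.17) and FAM183A (-0.95 ± 0.15). PROM1, which encodes the membrane protein prominin-1, was 604 to 1122 CPM in the isthmus and 233 to 551 CPM in the ampulla. Ciliated markers summed to 22915 to 31890 CPM in the ampulla and 15722 to 23580 CPM in the isthmus. Of 13 general epithelial genes, 9 were higher in the isthmus and 0 lower (69.2% and 0%, against 24.5% and 25.8% of all genes; median 0.43). Without the 4 libraries that did not match their number, 8 were higher and 1 lower. The higher genes included CLDN4 (1.5 ± 0.11), CLDN3 (0.75 ± 0.10), ESRP1 (0.70 ± 0.06) and EPCAM (0.60 ± 0.08).

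Secretory cell genes were divided: 8 of 19 tested were higher in the isthmus and 4 lower (42.1% and 21.1%, against 24.5% and 25.8% of all genes). OVGP1, the oviductin gene, was 2433 to 14734 CPM in the ampulla (median 9562) and 152 to 14863 CPM in the isthmus (median 10849), with a log2 difference of -0.02 ± 0.33 (adjusted p = 0.966), and of 0.10 without the isthmus library of heifer A. PAX8, a transcription factor of secretory cells, was slightly lower in the isthmus (log2 difference -0.19 ± 0.07, adjusted p = 0.0239), a call that was lost in 3 of the 14 fits that left out 1 animal and in the fit without a filter on low counts. The protease inhibitor genes moved in opposite directions: SERPINA1 was 0 to 96.4 CPM in the ampulla (median 26.8) and 0.177 to 7.74 CPM in the isthmus, whereas SLPI was 0 to 41.9 CPM in the isthmus (median 1.24) and at most 0.938 CPM in the ampulla.

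Genes listed as markers of cells outside the epithelium also differed, and their part in the other differences was not tested. All 7 mesothelial genes were lower in the isthmus (100%, against 25.8% of all genes), with a median of -1.57. Their sum was 1165 to 1694 CPM in the ampulla and 119 to 846 CPM in the isthmus. Besides UPK1B the mesothelial genes included WT1 (384 to 591 CPM in the ampulla and 27.5 to 378 CPM in the isthmus), CDH2 and PKHD1L1. WT1 was higher in the ampulla than the epithelial marker EPCAM given above, and which cells carried it was not tested. Of 8 endothelial genes 4 were lower and 0 higher (50% and 0%, against 25.8% and 24.5% of all genes). The vascular receptor gene KDR was 61.01 to 341 CPM in the ampulla and 2.31 to 39.3 CPM in the isthmus (log2 difference -3.40 ± 0.30), EMCN was lower by -2.58 ± 0.37, and PECAM1 (-1.06 ± 0.26) and TEK (-0.95 ± 0.20) by less. Endothelial markers summed to 113 to 399 CPM in the ampulla and 28.9 to 71.4 CPM in the isthmus.

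Of 11 smooth muscle genes 6 were lower in the isthmus and 1, MYH11, was higher (54.5% and 9.09%, against 25.8% and 24.5% of all genes). MYH11, the smooth muscle myosin heavy chain, was 19.9 to 87.2 CPM in the isthmus (median 44.1) and 0 to 3.49 CPM in the ampulla (median 1.09), a log2 difference of 5.13 ± 0.32 (adjusted p = 1.11e-13). Smooth muscle actin, ACTA2, went the other way, with 5.45 to 25.3 CPM in the ampulla and 3.15 to 11.47 CPM in the isthmus (-0.82 ± 0.19), as did PLN (-4.61 ± 0.42), SYNPO2 (-1.55 ± 0.40) and SMTN (-1.06 ± 0.20). Smooth muscle markers summed to 201 to 355 CPM in the ampulla and 177 to 314 CPM in the isthmus, so the regions overlapped on the list as a whole. Of 12 fibroblast and matrix genes 6 were higher and 3 lower in the isthmus (50% and 25%, against 24.5% and 25.8% of all genes), with a median of 1.26. FBLN1 was 60.6 to 204 CPM in the isthmus and 7.92 to 30.6 CPM in the ampulla, and LUM was 0 to 70.0 CPM and at most 1.84 CPM, while THY1 was 3.04 to 309 CPM in the ampulla and 0 to 165 CPM in the isthmus.

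Blood cell markers were mostly not called. Of 16 T and NK cell genes 1 was higher (LCK, 0.72 ± 0.21) and 2 were lower (CD4, -1.96 ± 0.29, and CD247, -0.71 ± 0.22). Of 12 macrophage genes 0 were higher and 1 was lower (MRC1, -0.69 ± 0.27, adjusted p = 0.034), a call that was lost without the isthmus library of heifer A. The shares higher and lower were 6.25% and 12.5% for T and NK cells and 0% and 8.33% for macrophages. Over all genes they were 24.5% and 25.8%. With the replicate block 3 T and NK cell genes were higher, and 2 macrophage genes were higher and 2 lower. None of 3 B and plasma cell genes was called. Summed levels overlapped, with 30.8 to 306 CPM in the isthmus and 19.8 to 208 CPM in the ampulla for T and NK cells, and 42.5 to 296 CPM and 45.2 to 299 CPM for macrophages. The only tested mast cell gene, KIT, was 196 to 323 CPM in the ampulla and 47.0 to 173 CPM in the isthmus (-1.37 ± 0.16). All 8 mast cell markers, scaled before the filter on low counts, summed to 196 to 321 CPM and 48.4 to 175 CPM, close to KIT alone. Which cells carried KIT was not tested. The only tested red blood cell gene, EPB42, was at most 4.45 CPM.

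**Figure D4:**
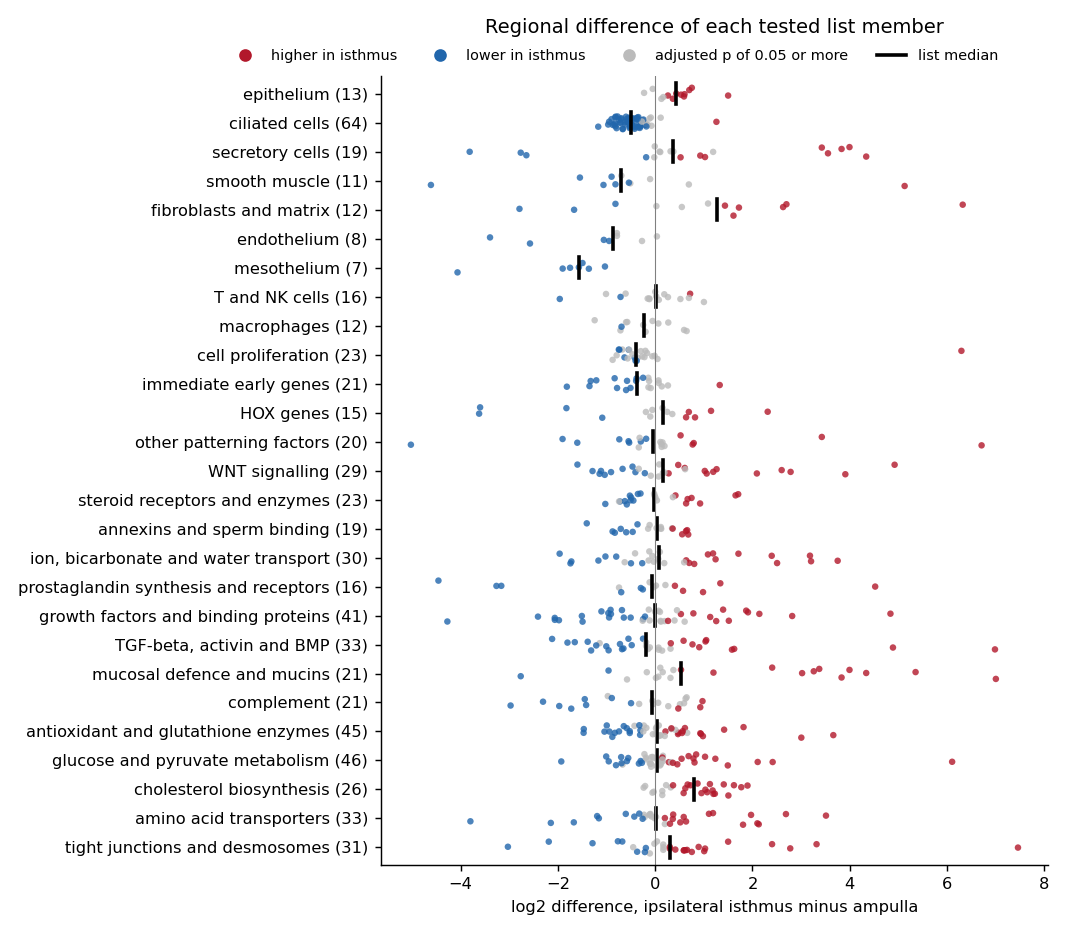
Log2 difference between ipsilateral isthmus and ampulla (horizontal axis) of each tested gene of the lists with 5 or more tested members, whose number stands in parentheses. Red points are higher and blue points lower in the isthmus at an adjusted p under 0.05, grey points are not called, and black bars are list medians. Ciliated cell genes lie mostly left of zero (55 of 64 lower) and cholesterol biosynthesis genes mostly right of it (18 of 26 higher).

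Of 21 genes of mucosal defence tested, 11 were higher in the isthmus and 2 lower (52.4% and 9.52%, against 24.5% and 25.8% of all genes; median 0.53). The bactericidal fold gene BPIFB1 was 53.9 to 336 CPM in the isthmus (median 180) and 1.14 to 10.4 CPM in the ampulla (median 3.26), a log2 difference of 5.35 ± 0.24 (adjusted p = 6.80e-17). TFF3, which encodes a mucus-associated trefoil peptide, was 63.1 to 274 CPM in the isthmus and 3.64 to 21.8 CPM in the ampulla (3.83 ± 0.20). Lactoferrin (LTF), an iron-binding antibacterial protein, was 185 to 4150 CPM in the isthmus (median 1163) and 35.3 to 432 CPM in the ampulla (median 81.2), with overlapping ranges (3.99 ± 0.44). The 2 lower genes were PIGR, which transports immunoglobulins across the epithelium (-2.77), and MUC16, which was 5811 to 9492 CPM in the ampulla and 248 to 7851 CPM in the isthmus (-0.96 ± 0.23, adjusted p = 8.85e-04).

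Of 21 complement genes 3 were higher and 8 lower in the isthmus (14.3% and 38.1%, against 24.5% and 25.8% of all genes). C3, the central component, was 1333 to 7703 CPM in the ampulla (median 2127) and 7.38 to 4068 CPM in the isthmus (median 215), and the highest isthmus value was that of lactating cow A (log2 difference -2.97 ± 0.53). MASP1, a protease of the lectin pathway, was 16.6 to 33.2 CPM in the ampulla and 0.255 to 16.1 CPM in the isthmus, without overlap (-2.31 ± 0.30), and SERPING1 (-1.97 ± 0.51) and C1R (-1.73 ± 0.73, adjusted p = 0.0497) were lower by less. Without the isthmus library of heifer A, 5 complement genes were lower in place of 8, and with the replicate block 6 were higher in place of 3.

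Ion and water transport genes differed by member. Of 30 tested 12 were higher in the isthmus and 8 lower (40% and 26.7%, against 24.5% and 25.8% of all genes). CFTR, the cyclic AMP-gated chloride and bicarbonate channel, was 15.1 to 166 CPM in the isthmus (median 44.3) and 1.84 to 5.44 CPM in the ampulla (median 3.93), a log2 difference of 3.75 ± 0.25 (adjusted p = 6.39e-13). SLC12A2, the basolateral sodium-potassium-chloride cotransporter that feeds chloride secretion, was 59.8 to 162 CPM in the isthmus and 10.4 to 26.1 CPM in the ampulla (2.51 ± 0.16). Both genes were separated between the regions in every library. The sodium pump subunit ATP1B1 (2.40), the epithelial sodium channel subunit SCNN1A (1.71) and the SLC4 family genes SLC4A11 (3.20) and SLC4A3 (3.18) were also higher in the isthmus. On the other side the calcium-activated chloride channel ANO1 (-1.97), the cotransporter SLC12A1 (-1.74) and the sodium channel subunit SCNN1G (-1.17) were higher in the ampulla.

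Junction genes differed by member. Of 31 tight junction and desmosome genes 16 were higher in the isthmus and 8 lower (51.6% and 25.8%, against 24.5% and 25.8% of all genes; median 0.30). The desmosomal cadherin gene DSG3 was 1.86 to 9.65 CPM in the isthmus and had no count in the ampulla, at least 99.8-fold lower, and its partner DSC3 was 63.0 to 409 CPM against 2.62 to 42.2 CPM (3.32 ± 0.29). Claudins, which set the permeability of tight junctions, went both ways: CLDN8 (2.78 ± 0.25), CLDN23 (2.40) and CLDN4 (1.5 ± 0.11) were higher in the isthmus, and CLDN11 (-3.03 ± 0.37), CLDN2 (-2.19) and CLDN9 (-1.29) were higher in the ampulla.

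Among prostaglandin genes, 5 of 16 were higher in the isthmus and 6 lower (31.2% and 37.5%, against 24.5% and 25.8% of all genes), and the 2 largest differences were in opposite directions. AKR1B1, whose product has prostaglandin F synthase activity, was 43.7 to 165 CPM in the isthmus (median 107) and 0 to 12.3 CPM in the ampulla (median 2.81), without overlap (log2 difference 4.52 ± 0.32, adjusted p = 1.35e-12). HPGD, which degrades prostaglandins, was higher in the ampulla as given above, together with the prostaglandin D synthase PTGDS (11.4 to 199 CPM in the ampulla and 0.255 to 70.2 CPM in the isthmus, -3.27 ± 0.51) and the prostacyclin synthase PTGIS (-3.17 ± 0.33). PTGS2, the inducible cyclooxygenase, was at most 3.56 CPM in any library (0.98 ± 0.36, adjusted p = 0.0251), and its call was lost without the isthmus library of heifer A.

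Steroid receptor genes differed by member. Of 23 genes for steroid receptors and enzymes, 7 were higher in the isthmus and 10 lower (30.4% and 43.5%, against 24.5% and 25.8% of all genes). ESR1, estrogen receptor alpha, had medians of 344 CPM in the isthmus and 356 CPM in the ampulla and a log2 difference of -0.01 ± 0.09 (adjusted p = 0.912). ESR2, estrogen receptor beta, was 53.2 to 151 CPM in the isthmus and 12.3 to 39.1 CPM in the ampulla, without overlap (1.71 ± 0.16, adjusted p = 3.26e-10). The glucocorticoid receptor NR3C1 was 159 to 246 CPM in the ampulla and 52.9 to 145 CPM in the isthmus, also without overlap (-1.03 ± 0.10), while its regulated cochaperone FKBP5 was higher in the isthmus (0.92 ± 0.11). The progesterone receptor PGR was 12.3 to 72.3 CPM in the isthmus (median 37.6) and 15.2 to 50.9 CPM in the ampulla (median 28.2), with an adjusted p of 0.0426 that was lost in 7 of the 14 fits that left out 1 animal. CYP11A1, the enzyme that starts steroid synthesis, was at most 4.26 CPM.

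Of 29 WNT signalling genes 12 were higher in the isthmus and 10 lower (41.4% and 34.5%, against 24.5% and 25.8% of all genes). LGR5, the R-spondin receptor known as a stem cell marker in other epithelia, was 514 to 1290 CPM in the isthmus (median 803) and 14.1 to 118 CPM in the ampulla (median 52.1), a log2 difference of 3.91 ± 0.25 (adjusted p = 2.57e-13). The WNT effector TCF7 was 8.28 to 33.0 CPM in the isthmus and 1.503 to 5.16 CPM in the ampulla (2.60 ± 0.21), also without overlap. TCF7L1 (2.78 ± 0.29) and the secreted inhibitors SFRP2 (4.92 ± 0.50) and WIF1 (2.09) were higher in the isthmus with overlapping ranges. Ligands and receptors went both ways, with WNT5A (1.26) and FZD5 (1.19) higher and ROR1 (-1.6), FZD8 (-1.29), WNT5B (-1.14) and WNT2B (-1.12) lower. WNT7A was below the filter on low counts, with 74 counts over the isthmus and 15 over the ampulla libraries.

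Of 33 TGF-beta, activin and BMP genes 10 were higher in the isthmus and 14 lower (30.3% and 42.4%, against 24.5% and 25.8% of all genes). The ligand genes BMP5 (0 to 20.4 CPM in the isthmus, median 4.26, and at most 0.188 CPM in the ampulla) and GDF10 (0.626 to 11.96 CPM and at most 0.799 CPM) were higher in the isthmus, whereas BMP3 (-2.12 ± 0.50) and the signal transducer SMAD9 (-1.81 ± 0.35) were higher in the ampulla. Of 41 growth factor and binding protein genes 12 were higher and 17 lower (29.3% and 41.5%). CTGF, a matricellular growth factor, was 48.9 to 299 CPM in the isthmus (median 174) and 1.42 to 23.3 CPM in the ampulla (median 3.76), without overlap (4.84 ± 0.36). Binding proteins of insulin-like growth factors split, with IGFBP3 higher (2.82 ± 0.32) and IGFBP2 lower (-2.41 ± 0.46), and FGFR4 was at most 1.09 CPM in the isthmus against a median of 3.82 CPM in the ampulla. IGF1 was below the filter, with 30 and 22 counts in all.

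HOX genes, which specify position along the body axis, were lower in the isthmus where called in the HOXD cluster and higher where called in the HOXB cluster. Of 15 tested, 5 were higher in the isthmus and 4 lower (33.3% and 26.7%, against 24.5% and 25.8% of all genes). In the HOXD cluster, HOXD3 was 2.84 to 14.6 CPM in the ampulla and 0 to 2.71 CPM in the isthmus (log2 difference -3.62 ± 0.33), its neighbour HOXD4 was 3.36 to 13.1 CPM and 0 to 2.51 CPM (-3.60 ± 0.36), and HOXD8 was lower by -1.83 ± 0.27. In the HOXB cluster, HOXB6 was 45.5 to 200.1 CPM in the isthmus and 8.69 to 36.4 CPM in the ampulla (2.31 ± 0.21), and HOXB3 (0.63), HOXB4 (0.69) and HOXB7 (0.82) were higher in the isthmus by less, while HOXB2 was not called (0.35 ± 0.16). The HOXA cluster held a gene higher in the isthmus, HOXA2 (1.15), and a gene lower there, HOXA6 (-1.09). HOXA9, HOXA10 and HOXA11 were below the filter, with at most 14 counts over the libraries of a region. Of 20 other patterning factors 5 were higher and 8 lower (25% and 40%). LHX1 was 0.363 to 5.03 CPM in the isthmus with no ampulla count, at least 57.9-fold lower, MSX1 was 18.1 to 86.7 CPM against 0.376 to 6.91 CPM (3.43 ± 0.32), and TBX3 was higher in the ampulla (-1.91 ± 0.28). EMX2 was 135 to 237 CPM in the isthmus and 123 to 262 CPM in the ampulla (0.13 ± 0.10, adjusted p = 0.279).

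Of 19 genes for annexins and sperm binding 5 were higher in the isthmus and 7 lower (26.3% and 36.8%, against 24.5% and 25.8% of all genes). ANXA4 was 222 to 370 CPM in the ampulla and 128 to 206 CPM in the isthmus, without overlap (-0.71 ± 0.07, adjusted p = 4.83e-09), and ANXA1 was lower in the isthmus by -0.46 ± 0.08. ANXA9 (-1.41 ± 0.37), ANXA8L1 (-0.88 ± 0.09) and S100A11 (-0.83 ± 0.12) were also lower there. ANXA2 (-0.15 ± 0.10, adjusted p = 0.21) and ANXA5 (0.03 ± 0.07, adjusted p = 0.784) had overlapping ranges and were not called. Without the 4 libraries that did not match their number, however, ANXA2 was lower by -0.23 (adjusted p = 0.0435). Which of the annexins bind sperm was not tested.

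Cholesterol biosynthesis genes were higher in the isthmus or not called. Of 26 tested 18 were higher and 0 lower (69.2% and 0%, against 24.5% and 25.8% of all genes), with a median log2 difference of 0.80. The sterol demethylase CYP51A1 was 85.0 to 200 CPM in the isthmus and 28.2 to 83.4 CPM in the ampulla (1.5 ± 0.13), and PMVK, a kinase of the mevalonate pathway, was 10.6 to 43.7 CPM and 3.38 to 9.81 CPM (1.9 ± 0.19), both without overlap. TM7SF2 (1.77 ± 0.19) and FDFT1 (1.41) were higher as well. The transcription factor SREBF2, which drives these genes, was higher by 0.37, and SREBF1 was not called (0.14).

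The other metabolic lists were divided between the regions (24.5% of all genes were higher and 25.8% lower). Of 46 glucose and pyruvate genes 15 were higher in the isthmus and 11 lower (32.6% and 23.9%), including the fructose transporter SLC2A5 (0.565 to 44.9 CPM in the isthmus and at most 1.31 CPM in the ampulla) and the lactate exporter SLC16A3 (2.41 ± 0.24), with SLC16A7 lower (-1.93 ± 0.30). Of 33 genes listed as amino acid transporters 15 were higher and 9 lower (45.5% and 27.3%). SLC43A3, a listed gene whose substrate was not tested, was 42.1 to 186 CPM in the isthmus and 1.598 to 24.7 CPM in the ampulla (3.51 ± 0.33). The leucine exchanger SLC7A5 was 23.6 to 122 CPM against 1.69 to 12.1 CPM (2.69 ± 0.23). Neither gene overlapped between the regions. SLC38A11 (-3.80 ± 0.50) and the cystine exchanger SLC7A11 (-2.15 ± 0.42) were lower in the isthmus. Of 45 antioxidant and glutathione genes 14 were higher and 15 lower (31.1% and 33.3%). The secreted peroxidase GPX3 was 107 to 471 CPM in the isthmus and 13.6 to 31.0 CPM in the ampulla (3.66 ± 0.21), and SRXN1 was higher by 3.00 ± 0.19, both without overlap.

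Of 23 proliferation genes 7 were lower in the isthmus and 1, CCNB1, was higher (30.4% and 4.35%, against 25.8% and 24.5% of all genes). CCNB1, which encodes cyclin B1, was 136 to 520 CPM in the isthmus (median 378) and 0.889 to 10.6 CPM in the ampulla (median 4.70), a log2 difference of 6.30 ± 0.27 (adjusted p = 3.66e-17). Its partner CDK1 was lower in the isthmus by -0.55, as were TYMS (-0.74 ± 0.14), MCM4 (-0.63 ± 0.12) and BUB1B (-0.75 ± 0.31, adjusted p = 0.0441, not called without the 4 libraries that did not match their number), and MKI67 was not called (-0.20). The genes next to CCNB1 in ARS-UCD2.0, looked up after its value was seen, were also higher in the isthmus: MRPS36 by 3.77 ± 0.18, CDK7 by 2.25 ± 0.12, SLC30A5 by 1.70 ± 0.11 and CENPH by 1.63 ± 0.12, whereas the next gene, PIK3R1, was not called (0.11 ± 0.08). Of 21 immediate early genes, which respond to handling and stress, 12 were lower in the isthmus (57.1%) and 1 was higher (KLF2, 1.33 ± 0.15), or 2 with the replicate block. MYC was 15.0 to 45.4 CPM in the ampulla and 3.15 to 17.4 CPM in the isthmus (-1.82 ± 0.19). The summed level of the list was 1620 to 3356 CPM in the ampulla and 981 to 2037 CPM in the isthmus, and its part in the other differences was not tested.

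The same contrast on the contralateral side was used to ask which regional differences depended on the side of the CL. The interaction of region and side was called for 959 of 16060 genes (5.97%), with 621 (3.87%) more positive and 338 (2.1%) more negative on the ipsilateral side. Of the 7681 ipsilateral DEGs 619 (8.06%) showed it. Among the 959 genes the level changed more between the sides in the isthmus than in the ampulla for 696 (72.6%). The same share over all 16060 genes was not computed, so it cannot be read as particular to the 959. The number fell to 624 without the 4 libraries that did not match their number, to 587 without heifer A and to 488 without heifer E.

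LOC100848428, an uncharacterized gene, had the smallest p. It was 44.3 to 147 CPM in the ipsilateral isthmus (median 71.7), against medians of 21.8 CPM in the contralateral isthmus and 22.7 and 22.8 CPM in the ipsilateral and contralateral ampulla. ACP5, an acid phosphatase gene, was 66.5 to 350 CPM in the ipsilateral isthmus (median 144), with medians of 44.5 CPM in the contralateral isthmus and 22.5 and 22.8 CPM in the ampulla. RRBP1, a ribosome-binding protein of the endoplasmic reticulum, had a median of 2109 CPM in the ipsilateral isthmus and of 1038 to 1323 CPM in the other 3 tissues. The differences in regional log2 difference were 1.55 ± 0.21, 2.0 ± 0.30 and 0.93 ± 0.14 (adjusted p = 1.43e-05, 4.47e-05 and 7.91e-05). In each of these 3 genes the median was highest in the ipsilateral isthmus, and in LOC100848428 and ACP5 it did not overlap with the ipsilateral ampulla.

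MID1, ALPK3, WLS and LPAR1 showed the reverse, a lower level in the ipsilateral than in the contralateral isthmus. MID1, a ubiquitin ligase gene, was 23.5 to 64.8 CPM in the ipsilateral isthmus (median 47.5), against medians of 83.8 CPM in the contralateral isthmus and 73.6 and 67.1 CPM in the ipsilateral and contralateral ampulla. WLS, which carries WNT proteins to the cell surface, had a median of 139 CPM in the contralateral isthmus and of 74.1 to 80.4 CPM elsewhere, so that the regions differed on the contralateral side (0.96 in mean log2 CPM) and hardly on the ipsilateral side (0.06). SOX4, a transcription factor gene, changed in both regions: its median was 6.62 CPM in the ipsilateral and 2.28 CPM in the contralateral ampulla, and 5.66 and 9.33 CPM in the ipsilateral and contralateral isthmus (-2.14 ± 0.32, adjusted p = 5.21e-05). LOC616200 and MISP also changed in opposite directions, falling towards the ipsilateral side in the ampulla and increasing in the isthmus.

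**Figure D5:**
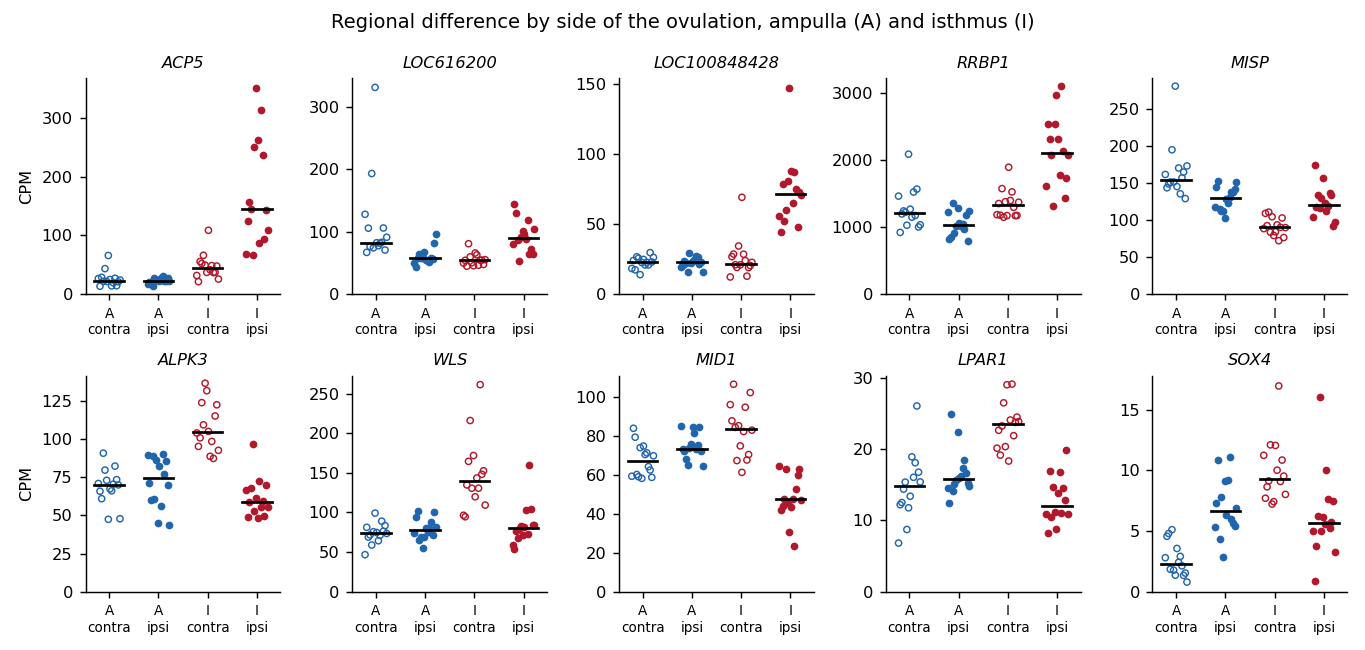
CPM (vertical axes, from 0) of the 5 genes with the smallest p in each direction of the interaction of region and side, in the ampulla (A, blue) and isthmus (I, red), contralateral (open) and ipsilateral (filled), with 14 libraries each and the median as a black bar. For LOC100848428 the median is 71.7 CPM in the ipsilateral isthmus and 21.8 to 22.8 CPM in the other tissues.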

How the data were processed

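Holstein oviduct epithelium was sequenced from 14 animals, 4 tissues each. Per the labels and the methods of the study, the authors made stranded single-end libraries, aligned the reads with TopHat2 2.0.13 to Btau_4.6.1 and counted them per gene with htseq-count (HTSeq 0.6.1). The deposited table holds raw counts of 31903 genes. Rows that name no gene stayed out of library sizes; 9.22% to 13.7% of counted alignments in the ipsilateral libraries were on genes.

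Counts were analysed with edgeR 4.0.16 (R 4.3.3): TMM normalization, filterByExpr with a minimum count of 10, the quasi-likelihood test and Benjamini-Hochberg adjustment, adjusted p under 0.05, with metabolic group as covariate. DESeq2 1.42.0, other filters and normalizations, fits without single animals or libraries, and fits without libraries in doubt were alternatives. Scripts were tested on simulated data. Replicates are separate animals. Column names give condition and animal number, and animals are lettered in the order of their numbers. Of the 14 isthmus and ampulla pairs with 1 number, correlations of deviations from group means were -0.0326 to 0.506 (10616 genes), 9 above 0.1, and with the exchanged numbers put right 0.0225 to 0.506 (median 0.236), 12 above 0.1. The methods of the study use no block, so the number was a replicate block as an alternative.

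The members and the 30 gene lists were chosen with earlier results of these data known. Of 951 listed symbols 888 were found and 639 tested. Genes named are the 12 with the largest difference in each direction without overlap, the 4 called members of each list with the largest difference, a fixed set of oviduct genes, the 5 genes with the smallest p, and for each interaction the 5 called genes in each direction, or the 2 with the smallest p where none was called. The 12 in each direction also had a mean of at least 5 CPM in the higher region and no LOC number as symbol. Other list members and neighbours were named after their values were seen. Some genes that the rule names are not reported here. Gene order is that of RefSeq ARS-UCD2.0; no coordinates or sequences were used here.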

Additional observations from a re-analysis of the deposited data

Results flagged for a closer look

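Values of reported genes and summed marker lists with a mean of at least 1 CPM were taken in 142 groups. A group held the 4 or 5 libraries of one condition for 1 gene or list. In 9 groups 1 library lay apart from the rest by Dixon's criterion, which chance gives in about 1 in 20 groups. Some libraries were flagged more than once. In the isthmus of non-lactating cows, GRP was 2649 CPM in cow A against 653 to 1208 CPM in the others and KCNH7 was 13.02 CPM in cow E against 1.51 to 4.26 CPM. RNASE1 was 31.1 CPM in the isthmus of heifer A and 14.5 to 18.3 CPM in the other heifers. PROS1, a gene of the ampulla, was 4.01 CPM in the isthmus of lactating cow A and at most 0.601 CPM in the other lactating cows. KCNS3 was 0.987 CPM in the ampulla library named non-lactating cow B, which matched heifer B, against 7.35 to 8.87 CPM in the other libraries named non-lactating, and smooth muscle markers summed to 355 CPM in it against 221 to 254 CPM. In the isthmus of lactating cow C ciliated cell markers summed to 15722 CPM against 20614 to 21543 CPM, and secretory cell markers to 8490 CPM against 18621 to 19939 CPM. Endothelial markers summed to 272 CPM in the ampulla of heifer D against 132 to 172 CPM.

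The regional log2 difference was more positive on the ipsilateral than on the contralateral side for ACP5 by 1.995 (adjusted p = 4.47e-05), LOC616200 by 1.61 (adjusted p = 4.47e-05), LOC100848428 by 1.55 (adjusted p = 1.43e-05), RRBP1 by 0.93 (adjusted p = 7.91e-05) and MISP by 0.80 (adjusted p = 8.04e-05). In size it was smaller ipsilaterally for MISP (-0.06 against -0.84 in mean log2 CPM) and LOC616200 (0.58 against -0.87). The difference between the sides was negative for SOX4 (-2.14, adjusted p = 5.21e-05), LPAR1 (-1.05, adjusted p = 0.000178), MID1 (-0.94, adjusted p = 2.21e-05), WLS (-0.93, adjusted p = 0.000293) and ALPK3 (-0.87, adjusted p = 0.000163), by the quasi-likelihood test of the interaction of region and side.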

How the results depend on the processing

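The 7681 DEGs became 4255 at an adjusted p under 0.001 and 1102 for a log2 difference beyond 1 in size, both by construction, 7195 to 7665 when 1 animal was left out, and 7849 with the animal number as a replicate block, or 8057 with the exchanged numbers put right. Leaving out 1 library or animal gave 4331 to 4855 DEGs in heifers, 1939 to 2555 in non-lactating cows, 1444 to 2584 in lactating cows and 4419 to 4982 in cows together. With the replicate block 1698 DEGs were called in non-lactating cows. DESeq2 called 1 gene for region by metabolic group, and 0 were called by edgeR when any animal was left out. The interaction of region and side gave 624 genes without the libraries in doubt, 1290 with the replicate block and 488 to 1068 without 1 animal, the lowest without heifer E and 587 without heifer A. The causes were not tested.

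Of 141 called named genes, 96 kept direction and call in each alternative, and 134 to 140 were called when 1 animal was left out. The alternatives include 2 stricter thresholds that lower the number by construction. At an adjusted p under 0.001, 124 named genes were called, and for a log2 difference beyond 1 in size 97 were called. Values that were not called changed sign. ANXA5 was -0.0101 without the libraries in doubt. ESR1 was 0.00257 without a filter on low counts, 0.00183 with a median filter, 0.0184 without the libraries in doubt, and -0.0513 to 0.0244 without 1 animal. OVGP1 was 0.0809 without the libraries in doubt, 0.101 without the isthmus library of heifer A, and -0.103 to 0.112 without 1 animal. The fits without the isthmus library of heifer A were chosen after seeing the data. The table's depth limits calls of genes near 1 CPM.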
